A study of Homo sapiens with 9 samples.

Results

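The genes described here write, maintain, read and remove DNA methylation: UHRF1 and UHRF2, the DNA methyltransferases DNMT1, DNMT3A and DNMT3B, and the dioxygenases TET1, TET2 and TET3. They were taken by symbol from the transcript tables, and the values of all transcripts with the same gene identifier were added up. This gave 8 genes of 60966 in the tables. All 8 were among the 14985 genes that reached 1 FPKM (fragments per kilobase of transcript, scaled to the mapped total) in 3 or more samples and were therefore tested. The 8 genes were chosen with results of these data known. Their differences are therefore given as a description, with a standard error and no p-value.

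RNA-seq was performed on H1299, a widely used line from a non-small cell lung cancer. The cells were transfected with a scrambled siRNA (Scramble) or with 1 of 2 siRNAs against FIBP (Si-FIBP#1 and Si-FIBP#2), and RNA was taken after 48 h. FIBP encodes an intracellular protein that binds acidic fibroblast growth factor. Each group had 3 samples, described by the submitters as independent, and all 9 samples were the same line, with no other treatment named in the labels. What was independent about the samples is not stated, so standard errors and p-values measure the spread between these samples only.

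In mammalian cells, methylation of cytosine in CpG is copied to the new strand after replication. UHRF1 recognises hemimethylated CpG through its SRA domain, reads and ubiquitinates histone H3, and brings DNMT1, the maintenance methyltransferase, to the site. DNMT3A and DNMT3B set new methylation, and the TET enzymes oxidise methylcytosine as a step towards its removal. In proliferating cells UHRF1 and DNMT1 mRNA are highest around S phase, and both genes are known E2F targets, whereas the close relative UHRF2 does not replace UHRF1 in maintenance.

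FIBP mRNA was measured as a check of the labels. It fell from 81.9 ± 5.71 FPKM (SD, n = 3) in Scramble to 6.52 ± 1.93 under Si-FIBP#1 and 7.09 ± 1.15 under Si-FIBP#2. The log2 fold change was -3.50 (limma, Benjamini-Hochberg adjusted p = 9.4e-07) and -3.36 (adjusted p = 1.42e-06). Of the marker genes for the line, the epithelial keratins KRT8 and KRT18 were abundant, with 106.6 and 476 FPKM on average in Scramble, and so was the mesenchymal VIM with 3232 FPKM. The 6 genes of this list summed to 3745 to 3975 FPKM in Scramble, 2455 to 2779 under Si-FIBP#1 and 1820 to 2523 under Si-FIBP#2, and KRT18 had log2 changes of -1.19 and -1.45 (limma, adjusted p = 2.01e-05 and 6.88e-06). Their part in the results below was not tested. CDH1 was listed at 0 in every sample and EPCAM reached 0.28 FPKM at most. The 10 markers of blood, endothelial and fibroblast cells summed to between 0.49 and 3.65 FPKM per sample, and 0 of 10 passed the filter. Their sum was 0.49 to 1.00 in Scramble, 1.13 to 1.95 under Si-FIBP#1 and 1.34 to 3.65 under Si-FIBP#2, and its part in the results below was not tested. The libraries held an estimated 20100000 to 23900000 fragments. Over all tested genes, 848 were called under Si-FIBP#1 (382 higher, 466 lower), 757 under Si-FIBP#2 (438 higher, 319 lower) and 84 between the siRNAs (40 higher and 44 lower under Si-FIBP#2), at a fold change over 2 and an FDR below 0.05. Over all genes the median log2 fold change was 0.07 and 0.11 with the siRNAs. After scaling by median ratios it was -0.02 for both, and the calls then split into 296 higher and 564 lower, 291 higher and 481 lower, and 33 higher and 52 lower.

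Promoter sequence is shown for UHRF1 and DNMT1, the members with the largest differences from Scramble. The promoter windows of RefSeq (GRCh38.p14, 250 bases before to 50 bases after each start) were searched on both strands for 4 spellings of the E2F motif, TTTCCCGC, TTTCGCGC, TTTGCCGC and TTTGGCGC. RefSeq windows were found for all 8 genes, and those of UHRF1 and DNMT1 held a match. For UHRF1, DNMT1, DNMT3A and TET2 a window contained the start of the most abundant model that GENCODE release 29 places. For the other 4 genes (UHRF2, DNMT3B, TET1 and TET3) it did not, so the start given there for that model was not searched. For UHRF1 (ENST00000615884), DNMT1 and TET1 that model was not the leading one of the gene. Their leading models have no start in release 29. For UHRF1, ENST00000624301, a model as long as the leading one (3898 nt), starts there at position 4909498, within the window chr19:4909251-4909550. UHRF1 had 1 match in each of 2 of its 3 windows. In the window chr19:4909251-4909550 on the plus strand the match began 14 bases before the start, within chr19:4909476-4909505. In the window chr19:4909894-4910193 it lay within chr19:4909973-4910002. DNMT1 had 1 match in the window chr19:10194904-10195203 on the minus strand, within chr19:10194937-10194966, and it began 2 bases before the RefSeq start. The main annotated DNMT1 model, ENST00000359526, starts further upstream in release 29, at position 10195079. The 30 bases around each match are printed to show the motif, in capitals, in its place:
UHRF1, upstream window: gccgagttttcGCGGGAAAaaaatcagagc
UHRF1, downstream window: cccgagcccgaTTTCGCGCgccctgagttc
DNMT1: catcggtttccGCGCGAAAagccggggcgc
The motif is read on the opposite strand in the UHRF1 upstream window and in DNMT1. Of all 35116 windows, 3.31% held a match, and of 27305 genes, 3.99% did in any window. A match only describes the letters in these windows.

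UHRF1 (ENSG00000276043; chromosome 19, 4903080 to 4962154, plus strand, in GENCODE release 29 on GRCh38) showed the largest difference of the 8 genes. It stood at 69.33, 66.31 and 63.82 FPKM in the Scramble samples. Under Si-FIBP#1 the values were 18.21, 16.87 and 16.93 FPKM, and under Si-FIBP#2 they were 20.60, 14.97 and 18.55 FPKM. All 6 depleted samples were thus far below all 3 Scramble samples, and the siRNA groups overlapped each other. Group means were 66.5 ± 2.76 FPKM (SD, n = 3) for Scramble, 17.3 ± 0.757 under Si-FIBP#1 and 18.04 ± 2.85 under Si-FIBP#2, or 26.1% and 27.1% of Scramble. On the log2(FPKM + 1) scale the difference from Scramble was -1.88 and -1.84 (standard error 0.10 for each). Si-FIBP#2 differed from Si-FIBP#1 by 0.04 (95% interval -0.18 to 0.27). Since whole cultures were measured, fewer cells of a type and less RNA per cell cannot be told apart in any of these values. Both siRNA comparisons share the same Scramble samples.

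UHRF2 (ENSG00000147854; chromosome 9, 6413151 to 6507054, plus strand) encodes the closest relative of UHRF1 with the same domains. It was at 28.93, 26.22 and 26.24 FPKM in Scramble, at 29.87, 29.24 and 29.18 FPKM under Si-FIBP#1, and at 31.89, 31.15 and 30.70 FPKM under Si-FIBP#2. No depleted sample was below a Scramble sample, but the gaps were small. The means were 27.1 ± 1.56, 29.4 ± 0.382 and 31.3 ± 0.601 FPKM, with log2 differences of 0.11 and 0.20 (standard error 0.06), close to the median of all genes. UHRF1 was 2.45 ± 0.0686 times as abundant as UHRF2 in Scramble. With the siRNAs the order of these gene sums was turned, and the ratio was 0.589 ± 0.0180 under Si-FIBP#1 and 0.577 ± 0.0860 under Si-FIBP#2. The UHRF2 sum includes models without a coding sequence. Its leading coding model, ENST00000276893, took 41.2% to 54.7% of it. That model was at 15.06 to 16.04 FPKM under Si-FIBP#1, below the UHRF1 sum. Under Si-FIBP#2 it was at 12.64 to 16.63 FPKM, which overlapped the UHRF1 sum.

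DNMT1 (ENSG00000130816; chromosome 19, 10133345 to 10231286, minus strand) was the most abundant of the 8 genes in every group. The Scramble samples had 94.41, 84.86 and 85.10 FPKM. Si-FIBP#1 samples had 39.73, 38.65 and 37.87 FPKM, and Si-FIBP#2 samples had 53.60, 52.30 and 51.30 FPKM. The groups did not overlap, and Si-FIBP#2 lay between the other two. The means were 88.1 ± 5.45, 38.8 ± 0.934 and 52.4 ± 1.15 FPKM, or 44.0% and 59.5% of Scramble. The log2 difference was -1.16 under Si-FIBP#1 and -0.74 under Si-FIBP#2 (standard error 0.05). Si-FIBP#2 was higher than Si-FIBP#1 by 0.43 (standard error 0.05). The difference was therefore more than 2-fold for Si-FIBP#1 and less than 2-fold for Si-FIBP#2.

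**Figure D1:**
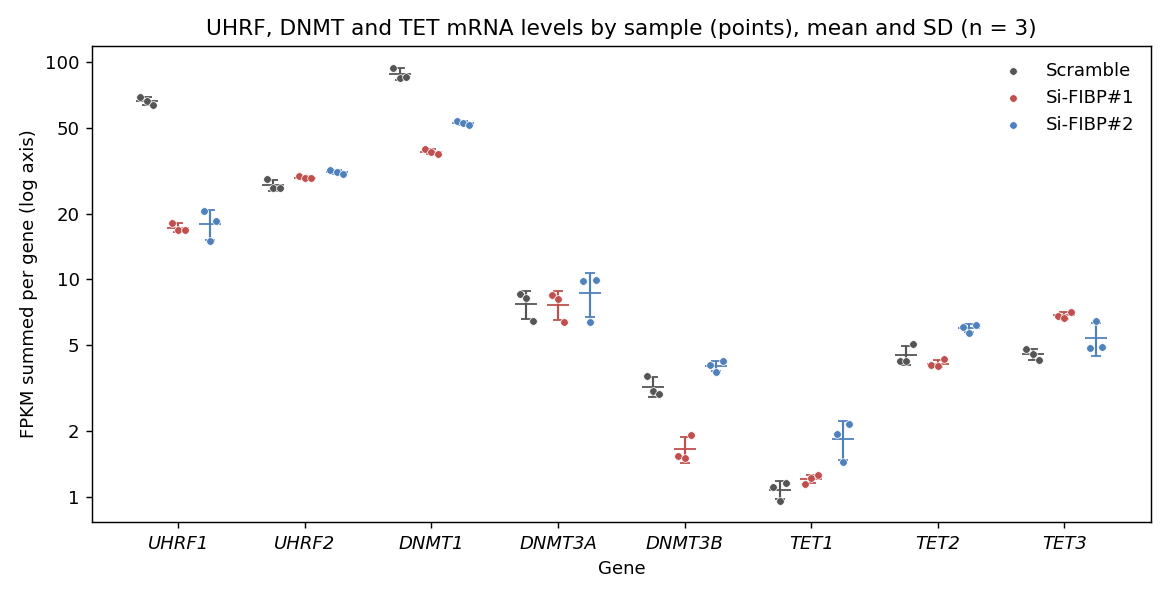
FPKM summed per gene (vertical log axis) of the 8 genes in each of the 9 samples. Points are samples, horizontal bars and whiskers are the mean and SD of 3 samples, and colours are the groups. UHRF1 lies between 14.97 and 20.60 FPKM in the 6 depleted samples against 63.82 to 69.33 FPKM in Scramble, while UHRF2 stays between 26.22 and 31.89 FPKM in all 9.

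Of the de novo methyltransferases, DNMT3B (ENSG00000088305; chromosome 20, 32762385 to 32809356, plus strand) differed between the siRNAs. It was at 3.60, 3.06 and 2.97 FPKM in Scramble, at 1.54, 1.51 and 1.92 FPKM under Si-FIBP#1, and at 4.02, 3.77 and 4.22 FPKM under Si-FIBP#2. All Si-FIBP#1 samples were below, and all Si-FIBP#2 samples above, all Scramble samples. The means were 3.21 ± 0.341, 1.66 ± 0.229 and 4.003 ± 0.225 FPKM, so that Si-FIBP#1 stood at 51.6% of Scramble and Si-FIBP#2 at 125%. The log2 difference was -0.66 under Si-FIBP#1 and 0.25 under Si-FIBP#2 (standard error 0.11), and Si-FIBP#2 exceeded Si-FIBP#1 by 0.92. As the values are low, the added 1 FPKM makes these log2 differences smaller than those of the FPKM values themselves. An estimated 130 to 306 fragments per library lay behind DNMT3B, the fewest beside TET1 with 209 to 426.

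DNMT3A (ENSG00000119772; chromosome 2, 25227855 to 25342590, minus strand) overlapped between all groups. It was at 8.53, 8.19 and 6.44 FPKM in Scramble, at 8.51, 8.13 and 6.36 FPKM under Si-FIBP#1, and at 9.84, 6.37 and 9.89 FPKM under Si-FIBP#2. The means were 7.72 ± 1.12, 7.67 ± 1.15 and 8.70 ± 2.02 FPKM, with log2 differences of -0.01 and 0.14 (standard error 0.17). DNMT3L, the catalytically inactive cofactor of both enzymes, was listed at 0 in every sample. Together, DNMT3A and DNMT3B came to 10.9 ± 1.39 FPKM in Scramble, 9.32 ± 0.927 under Si-FIBP#1 and 12.7 ± 2.22 under Si-FIBP#2. DNMT1 was 8.12 ± 0.806 times this sum in Scramble, 4.18 ± 0.343 times under Si-FIBP#1 and 4.22 ± 0.820 times under Si-FIBP#2.

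The TET genes were at low levels and differed in which siRNA group was highest. TET1 (ENSG00000138336; chromosome 10, 68560656 to 68694482, plus strand) was the least abundant of the 8 genes, with 1.11, 0.96 and 1.16 FPKM in Scramble, 1.15, 1.22 and 1.26 FPKM under Si-FIBP#1, and 1.94, 1.44 and 2.17 FPKM under Si-FIBP#2. The Si-FIBP#1 samples overlapped Scramble, and the Si-FIBP#2 samples were above all the others. The log2 difference was 0.09 under Si-FIBP#1 and 0.45 under Si-FIBP#2 (standard error 0.13).

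TET2 (ENSG00000168769; chromosome 4, 105145875 to 105279816, plus strand) was at 4.22, 4.23 and 5.03 FPKM in Scramble, at 4.03, 3.98 and 4.29 FPKM under Si-FIBP#1, and at 6.01, 5.68 and 6.18 FPKM under Si-FIBP#2. As for TET1, Si-FIBP#1 overlapped Scramble and Si-FIBP#2 was above both. The means were 4.49 ± 0.465, 4.10 ± 0.166 and 5.96 ± 0.254 FPKM. The log2 difference was -0.10 and 0.34, and between the siRNAs it was 0.45 (standard error 0.09).

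TET3 (ENSG00000187605; chromosome 2, 73986404 to 74108176, plus strand) showed the other order. It was at 4.79, 4.53 and 4.26 FPKM in Scramble, at 6.76, 6.65 and 7.09 FPKM under Si-FIBP#1, and at 4.82, 6.46 and 4.88 FPKM under Si-FIBP#2. All Si-FIBP#1 samples were the highest, and 2 of the 3 Si-FIBP#2 samples lay just above the highest Scramble sample. The log2 difference was 0.50 under Si-FIBP#1 and 0.20 under Si-FIBP#2 (standard error 0.11). Replicate 2 of Si-FIBP#2 stood apart from the other samples of its group for TET3, TET1 and DNMT3A. Without it the difference of TET3 between Si-FIBP#2 and Si-FIBP#1 was -0.42 instead of -0.30, and that of TET1 was 0.47 instead of 0.36. Between Si-FIBP#2 and Scramble, TET3 was then at 0.08 instead of 0.20, DNMT3A at 0.33 instead of 0.14 and TET1 at 0.56 instead of 0.45. The TET sum was 10.1 ± 0.366 FPKM in Scramble, 12.1 ± 0.432 under Si-FIBP#1 and 13.2 ± 0.406 under Si-FIBP#2, and DNMT1 was 8.73 ± 0.593, 3.20 ± 0.175 and 3.98 ± 0.193 times as abundant.

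**Figure D2:**
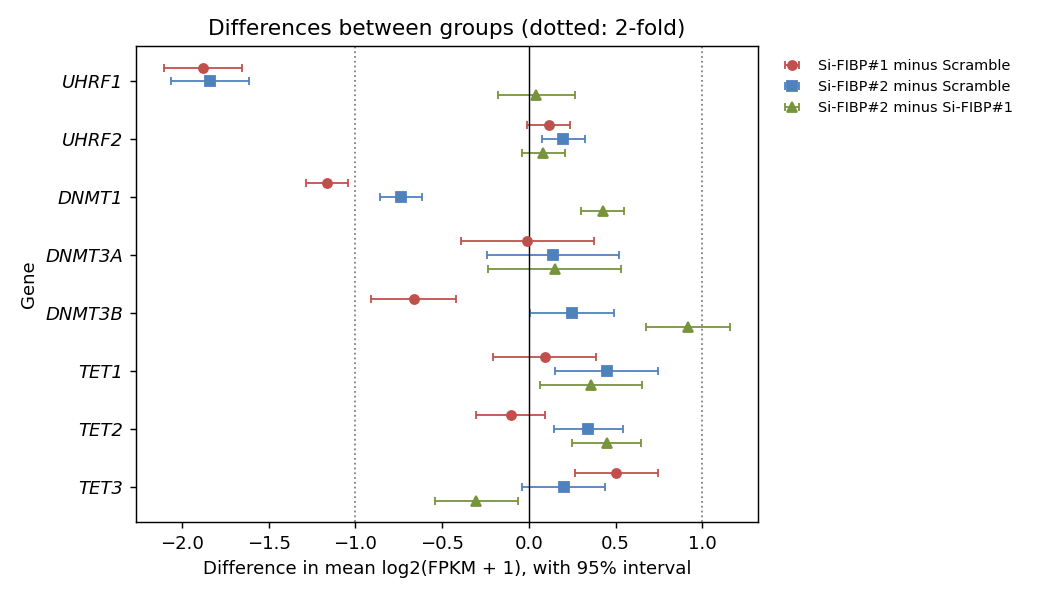
Differences between group means of log2(FPKM + 1) (horizontal axis) for the 8 genes, with 95% intervals from the fit and dotted lines at a 2-fold difference. With both siRNAs UHRF1 lies near -1.88 and -1.84, DNMT1 passes the 2-fold line under Si-FIBP#1 alone, and DNMT3B lies on opposite sides of 0 (-0.66 and 0.25).

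Against Scramble, 2 of the 8 genes (UHRF1 and DNMT1) were called under Si-FIBP#1 and 1 of 8 (UHRF1) under Si-FIBP#2, all of them lower. Of all tested genes, 5.66% were called under Si-FIBP#1 (3.11% lower) and 5.05% under Si-FIBP#2 (2.13% lower), and 1.53% were called lower with both. By the FDR alone, 3 of 8 were lower (UHRF1, DNMT1 and DNMT3B) and 1 higher (TET3) under Si-FIBP#1, beside 19.9% lower and 27.8% higher of all genes. Under Si-FIBP#2, 2 were lower (UHRF1 and DNMT1) and 3 higher (UHRF2, TET1 and TET2), beside 17.7% and 31.1%. Each of these 3 lost the threshold under some alternatives. UHRF2 (at 0.05) and TET2 (at 0.22) lost it after median ratio scaling. UHRF2 also lost it without Scramble replicate 2 or 3 (0.18 each), and TET1 without Scramble replicate 2 (0.41) or Si-FIBP#2 replicate 1 (0.42) or 3 (0.37). Between the siRNAs 0 of 8 were called, beside 0.561% of all genes, and 3 (DNMT1, DNMT3B and TET2) passed the FDR alone, all higher under Si-FIBP#2, beside 9.58%. The 0 depends on the setting, since DNMT3B (0.92) ranged from 0.87 to 1.23 over the alternatives. With the length-weighted sum it was at 1.14 and passed the FDR, thus past 2-fold. With that sum 66 genes were called higher and 41 lower of all 14985. In plain FPKM the DNMT3B mean under Si-FIBP#2 was 242% of that under Si-FIBP#1, so over 2-fold before 1 was added. All Si-FIBP#1 samples were below all Scramble samples for 3 of 8 genes and above for 2, beside 24.3% and 34.5% of all genes. Under Si-FIBP#2 they were below for 2 and above for 5, beside 21.2% and 36.1%. Si-FIBP#2 was above Si-FIBP#1 in all samples for 5 genes and below for 1, beside 20.4% and 12.5%. The median of the 8 genes was -0.06 and 0.20, against 0.07 and 0.11 for all genes. As the genes were chosen on these comparisons, nothing is read from these shares.

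In the order of levels, Scramble went from DNMT1 over UHRF1, UHRF2, DNMT3A, TET3, TET2 and DNMT3B down to TET1, and only TET3 and TET2 overlapped as neighbours. DNMT1 was above 92.1% of the tested genes in Scramble, UHRF1 above 89.2%, UHRF2 above 74.8%, and TET1 above 8.56%. By gene sums, UHRF2 took the place of UHRF1 behind DNMT1 with both siRNAs, with no overlap between them. DNMT3A overlapped TET3 under Si-FIBP#1, and TET2 overlapped TET3 under Si-FIBP#2.

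The transcript values showed which models carried these totals. UHRF1 had 8 transcripts in the tables, and 2 models of equal length (3898 nt) together took 69.8% to 85.4% of the total in each sample. They were at 54.4 ± 1.61 FPKM in Scramble, 13.2 ± 1.16 under Si-FIBP#1 and 13.9 ± 3.12 under Si-FIBP#2. Which of the 2 models held this amount varied between samples. ENST00000650932 was at 13.05, 0.00 and 14.43 FPKM in the Si-FIBP#1 samples and ENST00000624301 at 0.00, 12.17 and 0.03 FPKM, so that neither can be read alone. The remaining UHRF1 models that passed the filter were lower as well in both groups. ENST00000615884 was at 3.73 to 6.57 FPKM in Scramble and at 1.37 to 2.17 FPKM in the depleted samples.

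DNMT1 had 29 transcripts, 22 of them above 0 in some sample. The assembled model (5235 nt) led with 35.56, 33.23 and 35.74 FPKM in Scramble, 14.68, 16.41 and 11.90 FPKM under Si-FIBP#1, and 16.22, 14.63 and 18.21 FPKM under Si-FIBP#2. Together with the coding models ENST00000359526 and ENST00000340748 it took 61.7% to 73.5% of the total. This sum was 59.4 ± 2.96, 26.1 ± 1.68 and 35.4 ± 2.45 FPKM. The single models did not all show this order. In the assembled model Si-FIBP#2 overlapped Si-FIBP#1, and ENST00000340748 was at 8.98, 10.15 and 8.70 FPKM under Si-FIBP#2 against 11.57, 7.11 and 6.15 FPKM in Scramble.

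The DNMT3A transcripts were also summed by their start, a grouping chosen after the transcript values had been seen. The gene has an upstream start, which gives the long form (912 codons), and an internal start at position 25252311, which gives the short form known as DNMT3A2. The 3 coding models from the upstream start, of which ENST00000406659 codes for 166 codons only, summed to 2.13, 2.57 and 2.44 FPKM in Scramble, 3.78, 3.30 and 3.28 FPKM under Si-FIBP#1, and 3.93, 3.89 and 4.04 FPKM under Si-FIBP#2. All depleted samples were above all Scramble samples, but how often this holds over all genes is not given here for such sums. The 2 coding models from the internal start summed to 3.63, 4.04 and 3.63 FPKM in Scramble, 3.24, 3.11 and 2.52 FPKM under Si-FIBP#1, and 4.40, 1.71 and 2.99 FPKM under Si-FIBP#2. The leading upstream model, ENST00000321117, had log2 differences of 0.36 and 0.47 (standard error 0.13) and passed the FDR over transcripts under Si-FIBP#2 but not under Si-FIBP#1, beside 10.6% and 10.7% of all tested transcripts that passed it as higher. The internal models were below Scramble in every sample but replicate 1 of Si-FIBP#2. The share of the upstream models was 31.4 ± 6.45% in Scramble, 45.5 ± 5.59% under Si-FIBP#1 and 47.27 ± 11.99% under Si-FIBP#2, and the share ranges of the groups overlapped only between the siRNAs.

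**Figure D3:**
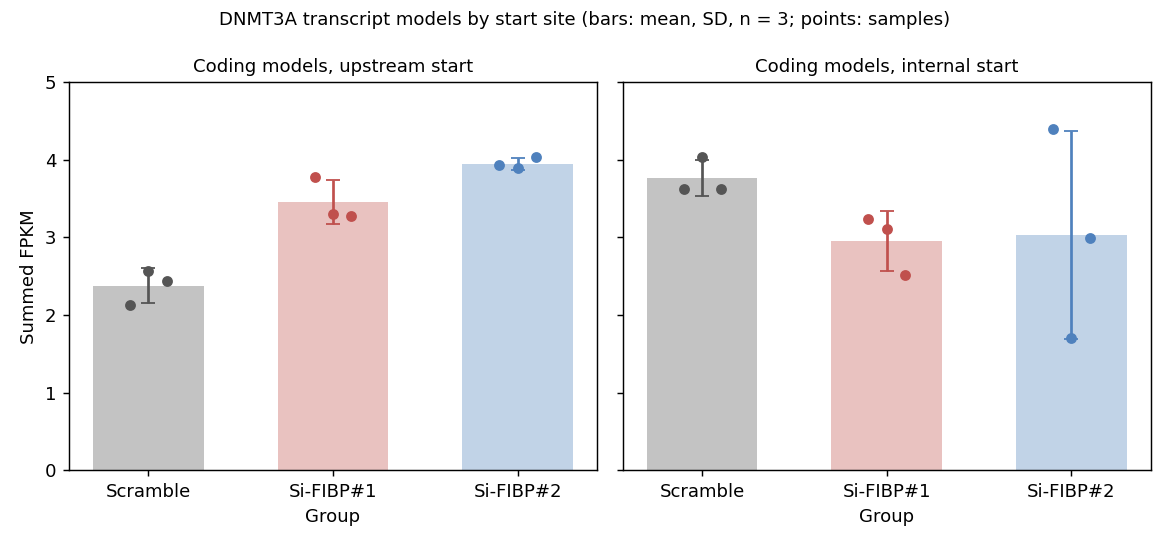
Summed FPKM (vertical axis, from 0) of the DNMT3A coding models that begin at the upstream start (left) and at the internal start (right). Bars and whiskers are the mean and SD of 3 samples, and points are the samples. The upstream models lie at 2.13 to 2.57 FPKM in Scramble and at 3.28 to 4.04 FPKM in the depleted samples, while the internal models range from 1.71 to 4.40 FPKM in the depleted samples around 3.63 to 4.04 FPKM in Scramble.

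Because the upstream models are long (9421 nt for ENST00000321117 in the tables), a sum that weights each model by its length gave another picture. This sum, as FPKM times length in kilobases, was 33.87, 34.32 and 32.44 in Scramble, 46.39, 38.79 and 39.25 under Si-FIBP#1, and 47.59, 40.45 and 46.75 under Si-FIBP#2. DNMT3A then lay above Scramble in all 6 depleted samples, with log2 differences of 0.29 and 0.41 (standard error 0.08). The plain sum gave -0.01 and 0.14. Both weighted differences passed the FDR, but the share of all genes passing under this weighting is not given here. With plain sums, 27.8% and 31.1% of all genes passed as higher. For 34.5% and 36.1% all depleted samples were above Scramble. The weight also rests on a length that is 4279 nt in release 29. This weighting was added after the transcript values had been seen. UHRF1 (-1.93 and -1.90) and DNMT1 (-1.18 and -0.75) differed little from their plain sums. DNMT3B was at -0.88 and 0.27, and TET1 at 0.15 and 0.70. Here too 1 was added before the log2, and it weighs less on the larger weighted values. The weighted means of DNMT3B were 12.8, 6.51 and 15.5, beside plain means of 3.21, 1.66 and 4.003 FPKM. For low genes the log2 differences of the 2 sums can therefore differ through the added 1 alone.

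DNMT3B was carried by ENST00000348286, with 67.7% to 93.1% of the total. In the annotation this model has 770 codons and lacks 3 of the 22 coding exons of the full-length model ENST00000328111 (83 codons). It matches the form known as DNMT3B3, which lacks part of the catalytic domain. The full-length model was at 0.26 FPKM or less in every sample. ENST00000348286 had 2.94, 2.68 and 2.01 FPKM in Scramble, 1.33, 1.30 and 1.72 FPKM under Si-FIBP#1, and 3.44, 3.51 and 3.34 FPKM under Si-FIBP#2, with no overlap between the groups.

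For TET1 the tables hold 2 models, and the assembled one (9935 nt) took 39.6% to 96.9% of the total. The lowest share was that of replicate 2 of Si-FIBP#2. The annotated model ENST00000373644 was at 0.06, 0.03 and 0.19 FPKM in Scramble and at 0.31 to 0.87 FPKM in the depleted samples. The assembled model was at 0.93 to 1.05 FPKM in Scramble and 0.84 to 0.94 under Si-FIBP#1. Under Si-FIBP#2 it was at 1.59, 0.57 and 1.85 FPKM, and the 0.57 is in the sample where the annotated model was at 0.87. As for UHRF1, neither model can be read alone. UHRF2 was led by ENST00000276893 (802 codons), at 12.57 to 13.24 FPKM in Scramble, 15.06 to 16.04 under Si-FIBP#1 and 12.64 to 16.63 under Si-FIBP#2. TET2 was led by ENST00000380013, which codes for the full-length enzyme (2002 codons). It was at 3.16, 3.82 and 3.56 FPKM in Scramble, 3.04, 3.66 and 3.95 FPKM under Si-FIBP#1, and 5.60, 4.78 and 3.25 FPKM under Si-FIBP#2, so that this model overlapped Scramble in both siRNA groups. TET3 was led by ENST00000409262, with 3.26 to 3.50 FPKM in Scramble, 4.59 to 5.09 FPKM under Si-FIBP#1 and 3.50 to 4.73 FPKM under Si-FIBP#2. The assembled TET3 model of 11930 nt was at 0.91 to 1.29 FPKM in Scramble, 1.75 to 1.88 under Si-FIBP#1 and 0.72 to 1.71 under Si-FIBP#2, which overlapped Scramble. Genes that share sequence with the members were almost silent. UHRF2P1 reached 0.09 FPKM, and DNMT3AP1, TET1P1 and the antisense gene TET2-AS1 were listed at 0 in all samples. The tables do not state whether strand was used in counting.

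Most of the listed partners of UHRF1 and DNMT1 fell as well, in a list chosen with earlier results of these data known. PCNA, HELLS and CDCA7, which fell over 2-fold with both siRNAs, also stand in the S phase list below. Of 12 genes for methylation maintenance, 9 fell and 0 rose under Si-FIBP#1 (median log2 fold change -0.62), and 10 fell and 0 rose under Si-FIBP#2 (median -0.68), at an adjusted p below 0.05. Of all tested genes, 19.9% fell and 27.8% rose under Si-FIBP#1, and 17.7% fell and 31.1% rose under Si-FIBP#2. More than 2-fold falls were seen in 5 and 4 of the 12, beside 3.11% and 2.13% of all tested genes. Under Si-FIBP#1, 2 of them rose when transcripts were weighted by length, and 1 rose in the fit of only the groups compared and in that without Si-FIBP#2 replicate 2. PCNA, the sliding clamp that carries DNMT1, fell from 180.41, 182.40 and 188.88 FPKM to 60.99, 72.01 and 69.60 FPKM under Si-FIBP#1 and 82.22, 78.71 and 80.83 FPKM under Si-FIBP#2. On the log2 scale the change was -1.44 (limma, adjusted p = 4.38e-07) and -1.18 (adjusted p = 1.27e-06). LIG1, the replicative DNA ligase that UHRF1 binds, fell with log2 changes of -1.44 and -1.15 (limma, adjusted p = 2.87e-05 and 1.21e-04). PCLAF, a PCNA-associated factor of the same pathway named here after its values were seen, fell with log2 changes of -1.77 and -0.81 (adjusted p = 1.34e-05 and 0.00151). It was higher under Si-FIBP#2 than under Si-FIBP#1 by 0.95 (adjusted p = 0.00339). HDAC1, a histone deacetylase that binds DNMT1, was lower under Si-FIBP#2 than under Si-FIBP#1, at -0.61 (adjusted p = 0.00531), and 9 of the 12 did not pass this test. HDAC1 had log2 changes of 0.23 (adjusted p = 0.091) and -0.37 (adjusted p = 0.014) against Scramble and was also named after its values were seen. EHMT1 and EHMT2, the histone methyltransferases that modify LIG1, were also named after their values were seen. They had log2 fold changes between -0.09 and 0.09 with both siRNAs and did not pass the test.

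S phase genes moved with UHRF1 and DNMT1 in the same samples. All 42 genes of an S phase list from which UHRF1 had been removed fell with both siRNAs, beside 19.9% and 17.7% of all tested genes. Their median log2 changes were -1.16 and -1.08. More than 2-fold falls were seen in 29 and 24 of them, beside 3.11% and 2.13% of all tested genes. Of the 42, 4 (PCNA, HELLS, CDCA7 and TYMS) also stand in lists described here. RRM2, the small subunit of ribonucleotide reductase, fell with log2 changes of -2.12 and -1.83 (limma, adjusted p = 1.26e-06 and 3.62e-06). BLM, a RecQ helicase, fell as well, at -1.73 and -1.98 (adjusted p = 5.79e-06 and 3.28e-06). Between the siRNAs, 8 of the 42 were higher and 3 lower under Si-FIBP#2 at an adjusted p below 0.05. Of all tested genes, 9.58% were higher and 869 of 14985 lower. Of 31 list genes with a promoter window, 18 (58.1%) held the E2F motif searched above, beside 3.99% of all 27305 genes. The remaining list genes had no window under their symbol. This share is a description of the list, and its part in the falls was not tested. Whether the levels of UHRF1 and DNMT1 follow the share of cells in S phase was not tested.

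Of 7 tested genes from a list of 9 that guide or assist de novo methylation, 2 fell and 1 rose under Si-FIBP#1, and 2 fell and 2 rose under Si-FIBP#2, none of them over 2-fold. Over all tested genes the shares that fell and rose were 19.9% and 27.8% under Si-FIBP#1 and 17.7% and 31.1% under Si-FIBP#2. NSD2, which dimethylates histone H3 at lysine 36, fell with log2 changes of -0.85 and -0.70 (limma, adjusted p = 5.77e-06 and 2.04e-05). NSD1, its relative with the same activity, rose by 0.32 and 0.47 (adjusted p = 0.00226 and 2.45e-04). Of the 8 readers of methylated CpG, 1 fell and 1 rose under Si-FIBP#1 and 1 rose under Si-FIBP#2, against the same shares of all genes. ZBTB4, a zinc finger repressor that binds methylated CpG, rose with both, by 0.47 (adjusted p = 2.09e-04) and 0.81 (adjusted p = 8.34e-06). It was higher under Si-FIBP#2 than under Si-FIBP#1 by 0.34 (adjusted p = 0.00646).

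**Figure D4:**
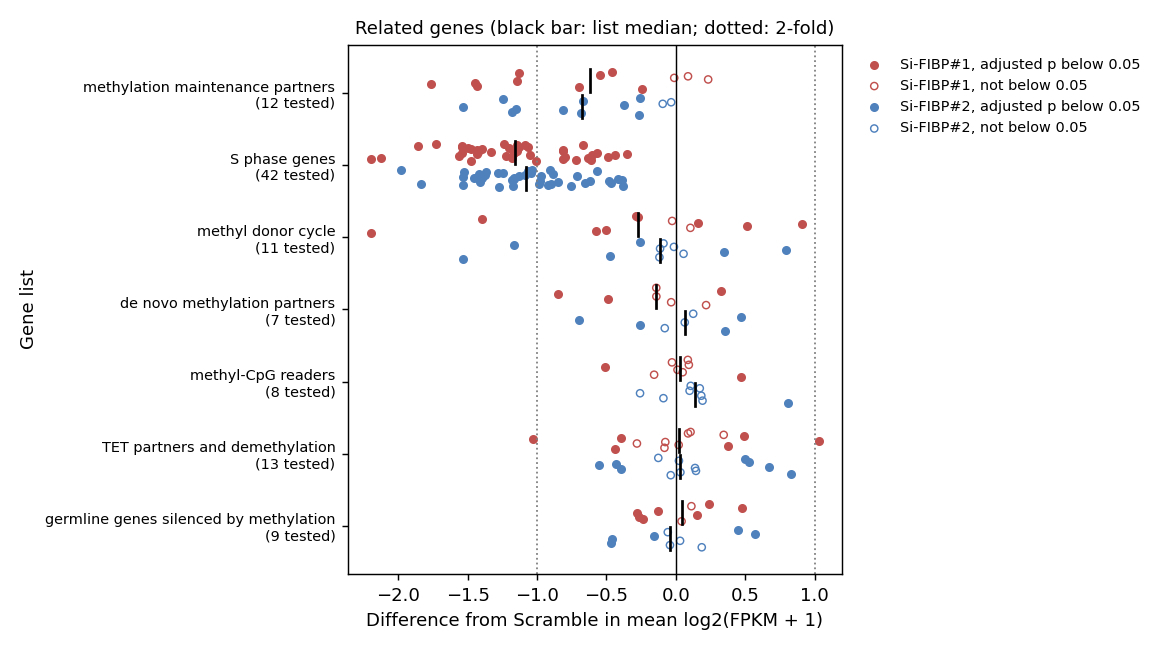
Difference from Scramble in mean log2(FPKM + 1) (horizontal axis) of each tested gene in 7 related lists, with the siRNAs in separate rows. Filled points have an adjusted p below 0.05, open points do not, black bars are list medians and dotted lines mark 2-fold. All 42 S phase genes lie below 0 with both siRNAs, while the lists for readers, TET partners and germline genes have medians between -0.04 and 0.14.

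Of 13 tested genes for TET partners and demethylation, 3 rose and 3 fell under Si-FIBP#1, beside 27.8% and 19.9% of all tested genes. Under Si-FIBP#2, 4 rose and 3 fell, beside 31.1% and 17.7%, so that the counts lie near those of all genes. IDH1, which makes the 2-oxoglutarate that TET enzymes use, rose by 1.04 and 0.67 (limma, adjusted p = 3.92e-06 and 5.64e-05). GADD45B, a stress gene linked to active demethylation, fell, at -1.03 and -0.55 (adjusted p = 2.68e-05 and 0.00121). TDG, the glycosylase that excises the products of TET, was named here after its values were seen. It stood at 17.59, 17.27 and 17.06 FPKM in Scramble, 14.37, 15.57 and 19.32 FPKM under Si-FIBP#1, and 29.73, 34.36 and 30.62 FPKM under Si-FIBP#2. It was higher under Si-FIBP#2 than under Si-FIBP#1 by 0.91 (limma, adjusted p = 7.41e-04). In the same list 3 genes were higher and 2 lower under Si-FIBP#2 than under Si-FIBP#1, beside 9.58% higher and 869 of 14985 lower of all tested genes. The lower ones were IDH1 (-0.36, limma, adjusted p = 0.00893) and APEX1 (-0.23, adjusted p = 0.0111). For TDG, the log2 fold change under Si-FIBP#1 was -0.08 (adjusted p = 0.533).

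Of 11 tested genes of the methyl donor and folate cycle, 6 fell and 3 rose under Si-FIBP#1, beside 19.9% and 27.8% of all tested genes, and 4 fell and 2 rose under Si-FIBP#2, beside 17.7% and 31.1%. TYMS, which makes thymidylate, fell with log2 changes of -2.20 and -1.53 (limma, adjusted p = 3.06e-07 and 1.3e-06). It is also in the S phase list. MAT2A and AHCY were named after their values were seen. MAT2A, which makes the methyl donor S-adenosylmethionine, had log2 changes of -0.03 and -0.01 (adjusted p = 0.861 and 0.932). AHCY, which removes the by-product that inhibits methyltransferases, fell, at -0.28 and -0.26 (adjusted p = 0.00617 and 0.00951).

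Germline genes that methylation keeps silent in most tissues were examined at the level of mRNA. Of 22 genes, 9 were expressed highly enough for testing. Their Scramble means ran from 20.5 FPKM (SYCE1) to 656 FPKM (XAGE1A). These 9 were thus not silent in Scramble, so a switch from silent to expressed cannot be seen in them. Whether methylation still limited their levels is not known from these data. The other 13, among them DAZL, DDX4, MAEL and SYCP3, were at 0.41 FPKM or less in every sample of every group. The highest value was that of MAGEC2. It was at 0.03, 0 and 0 FPKM in Scramble, 0.12 to 0.20 under Si-FIBP#1 and 0.09 to 0.41 under Si-FIBP#2. Such values are near the floor and were not tested. Of the 9 tested, 3 rose and 4 fell under Si-FIBP#1, beside 27.8% and 19.9% of all tested genes. Under Si-FIBP#2, 2 rose and 3 fell, beside 31.1% and 17.7%, and none changed over 2-fold with either siRNA. MAGEA10 rose by 0.47 and 0.57 (limma, adjusted p = 0.0041 and 0.00148). MAGEA3 fell, at -0.28 and -0.46 (adjusted p = 5.54e-04 and 2.69e-05), but its copy MAGEA6 is nearly identical, so that reads may be shared between them. Methylation itself was not measured in these samples.

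For each gene, the 3 tested genes with the most similar profile over the 9 samples were taken by the root mean square difference of log2(FPKM + 1) after subtraction of the Scramble mean. For UHRF1 these were FAM83D (0.09), KIF20A (0.10) and TCF19 (0.13). For DNMT1 they were TONSL (0.06), KIF22 (0.07) and DDX39A (0.07). UHRF2 was most like KMT2A (0.03), C1orf216 (0.04) and NENF (0.04). DNMT3A was most like IQCN, HSF4 and BBC3 (0.10 to 0.11), and among the genes nearest to DNMT3B were PBX3 and UBAC1 (both 0.10). PBX3 showed the same opposite signs as DNMT3B, with log2 differences of -0.58 and 0.22. Nearest to TET1 were DNASE1L1, MVB12A and RNF157 (0.05 to 0.07), to TET2 BAG1, PRKAB2 and C6orf62 (0.05 to 0.06), and to TET3 ZSCAN18, MAST3 and C11orf95 (0.05 to 0.06). These genes were picked for their likeness among 14985, so the likeness is a description.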

How the data were processed

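RNA-seq tables of 9 H1299 samples were used. Per the labels, poly(A) RNA was made into TruSeq libraries, and HISAT2 and StringTie are named in the submitters' processing notes. Genome build and annotation are not given in the sources used here. The authors deposited 1 table per sample with a value for each Ensembl or assembled transcript (5.45% to 5.84% of the sum is assembled). The deposited values are taken to be FPKM, inferred from the values, since neither paper nor labels name the unit.

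Transcript FPKM were summed per gene. Genes with 1 FPKM or more in 3 or more of 9 samples were tested on log2(FPKM + 1) with limma 3.58.1 (R 4.3.3, moderated with a trend) in 1 fit of 3 groups, and the Benjamini-Hochberg adjustment ran over all 14985 genes. A gene was called at a fold change over 2 and FDR below 0.05. Fold changes are on this scale, which understates those of low genes. The 8 genes and the related lists were chosen with earlier results of these data known. Genes were named by rule: FIBP, the 8 genes, per list the 2 with the largest smaller fold change among those passing the FDR in the same direction with both siRNAs, and the 3 nearest profiles. Some genes that the rule names are not reported here.

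Depth was estimated from the steps of low values of genes with a single transcript, after 275 or 300 bases were taken off the length. Counts were not used here, so precision comes from the spread between samples. Gene positions and codons are from GENCODE release 29 (GRCh38) matched by identifier, and models can differ, as ENST00000321117 has 9421 nt in the tables and 4279 nt there. Transcripts without a gene name held 0.231% to 0.2926% of the sum. Pathway annotation in the tables was not used. Python 3.11.15, pandas 2.3.3 and matplotlib 3.10.9 were used. Alternatives were other scalings (TPM, median ratio), a pseudocount of 0.1, other filters, Ensembl transcripts only, the replicate block, only the groups compared, no fold threshold, leaving out each sample, and the length-weighted sum.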

Additional observations from a re-analysis of the deposited data

How the results depend on the processing

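Over the alternatives, the log2 difference of UHRF1 from Scramble ranged from -1.98 to -1.85 (Si-FIBP#1) and from -1.98 to -1.71 (Si-FIBP#2). For DNMT1 the ranges were -1.26 to -1.09 and -0.89 to -0.55, and for DNMT3B under Si-FIBP#1 -0.92 to -0.60. Between the siRNAs DNMT3B ranged from 0.87 to 1.23, on both sides of 2-fold. Of the fold changes of the 8 genes under the alternatives, 403 kept direction and side of the FDR threshold, 7 lost the threshold, 7 gained it and 6 changed sign. The signs that changed were those of small differences. UHRF1 between the siRNAs was -0.0014 after median ratio scaling and -0.0527 without Si-FIBP#2 replicate 1, and 0.1652 at the highest when 1 sample was left out. DNMT3A under Si-FIBP#1 ranged from -0.1197 to 0.1041 when 1 sample was left out. It was 0.06, 0.03 and 0.10 without Scramble replicate 1, Scramble replicate 2 or Si-FIBP#1 replicate 3, and 0.29 with the length-weighted sum. The lost thresholds were those of TET1 (3), UHRF2 (3) and TET2 (1) under Si-FIBP#2. The gained ones were those of TET3 (3) and TET1 (2) between the siRNAs, DNMT3A (1) under Si-FIBP#2 and UHRF2 (1) under Si-FIBP#1. With the length-weighted sum DNMT3A passed with both siRNAs. TET1 had no value under the 5 FPKM filter or with Ensembl transcripts only, and DNMT3B none under the 5 FPKM filter.

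The counts of called genes were 848, 757 and 84, and became 1498, 1411 and 172 with a pseudocount of 0.1, and 7146, 7309 and 2304 without the fold threshold. Leaving out 1 sample gave 849 to 891, 741 to 842 and 75 to 132, the last without Si-FIBP#2 replicate 2. In the related lists 34, 26 and 0 genes were called (limma), and 74, 71 and 25 by FDR alone. Between the siRNAs this was 1 with TPM and 0 to 2 when a sample was left out (2 without Si-FIBP#1 replicate 3). The share of lower genes among the calls was 55.0%, 42.1% and 52.4%, against 65.6%, 62.3% and 61.2% after median ratio scaling, 43.3%, 32.5% and 39.0% with a pseudocount of 0.1, and 38.3% (length-weighted sum) and 39.6% (TPM) between the siRNAs. In the S phase list 41 or 42 genes fell with each siRNA under every alternative that was run, and in the maintenance list 8 to 9 and 9 to 12. The cause of these changes was not tested, except that fewer samples or genes enter some fits.

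With the replicate number as a block, the calls were 853, 760 and 88. Deviations of samples with the same number correlated at -0.0568 to 0.1025 across genes, and not every sample correlated best with its own number. Between the siRNA groups the pairs of the same number were the highest (0.0456 to 0.0967), but between Scramble and Si-FIBP#2 they were not. The numbers thus do not settle whether samples were paired. Low values limit DNMT3B and TET1 most, with as few as 130 and 209 fragments in a library.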
